A study of Caenorhabditis elegans with 2 samples.

Results

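The peaks described here are the summits of UNC-130::GFP that lay in promoters of coding genes reading in one direction. A peak belonged to them when its summit lay over 500 bp from the 5' end of every annotated tRNA gene and inside the promoter windows of protein-coding genes of a single strand. Each window reached 1000 bp into the upstream DNA of an annotated 5' end and 200 bp past that end. The rule used positions alone and no signal value, and 600 of the 1648 nuclear peaks passed it (36.4%, Wilson 95% interval 34.1 to 38.8%, counting error only). All 1667 peaks of the deposited optimal list include the mitochondrial genome, which was left out. Another 448 nuclear peaks lay in windows of both strands and are called divergent, 381 lay outside all coding windows and 219 lay by tRNA genes.

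The data were chromatin immunoprecipitation sequencing (ChIP-seq) peak lists from 2 biological replicates of whole Caenorhabditis elegans hermaphrodites at the L4 larval stage, 48 h after synchronization by bleaching and L1 starvation, and an antibody to GFP was used (the antibody label reads unc-130). Both replicates share 1 control. The strain was AGK541, in which armSi1 on chromosome II expresses UNC-130 joined to GFP from the mex-5 promoter with the tbb-2 3' UTR and cb-unc-119(+), in a background of unc-119(ed3) III and niDf199 IV. The labels call the tag GFP, eGFP or GFP-FLAG. Both replicates carried the same genotype and stage, so no second condition was compared, and an exact two-sided sign-flip test on 2 replicates cannot give a p below 0.5. Values below are therefore descriptions, with both replicates side by side.

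UNC-130 belongs to the forkhead transcription factors, which bind DNA through a winged-helix domain, and it is known from work on neuron and muscle patterning in this animal. The mex-5 promoter that drives the transgene is active in the germline, so the binding measured is that of a protein expressed outside its own promoter's control. Many worm genes are trans-spliced, a step that removes the first stretch of the transcript and joins a short leader in its place, so an annotated 5' end often marks a splice site that lies downstream of the start of transcription. A promoter read in one direction holds coding windows of a single strand, which allows the DNA around the summit to be laid out in gene direction. The far side of the summit can still hold the body of another gene. Of the 583 genes nearest to a member, 66.6% had their upstream coding neighbour on the same strand, against 53.7% of all coding genes. In 32.9% that neighbour ended within 500 bp or overlapped, against 20.5% of all coding genes.

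The sequences below are shown because the base composition and the words described later can be read in them. They are the summit base with 50 bp on either side, in the direction of the gene, taken from RefSeq WBcel235 (the assembly behind ce11), and neither exon nor UTR is annotated in any stretch shown. Capitals in the summit windows mark, on either strand, the words named with the members below and GACGC (at rpl-3); other searched words are left in lower case. The genes K12H4.5, rpl-3, rpl-35 and cdc-48.1 have the highest signals among members with such a window and not on the first chromosome, and for rpl-35 and cdc-48.1 a stretch of equal length centred 100 bp further toward the gene follows, added after the values were seen, in which capitals mark runs of at least 4 thymines. The other members are among those of highest signal that hold a given word: GCGCGAAA at set-2 (as TTTCGCGC), CTGCGTCTC at sec-61.G, GCGCGC and GCGCGAAA at hcp-3, GCGCGC at R05H5.3 and GTAAACA at R03D7.2.
K12H4.5 summit (chrIII:8043905-8044005, plus strand): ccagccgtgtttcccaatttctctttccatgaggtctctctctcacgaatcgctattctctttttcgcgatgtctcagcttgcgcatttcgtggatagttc
rpl-3 summit (chrIII:3867519-3867619, plus strand): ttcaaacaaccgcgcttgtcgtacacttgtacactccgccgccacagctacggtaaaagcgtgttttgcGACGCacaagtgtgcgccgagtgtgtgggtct
rpl-35 summit (chrIII:7854648-7854748, plus strand): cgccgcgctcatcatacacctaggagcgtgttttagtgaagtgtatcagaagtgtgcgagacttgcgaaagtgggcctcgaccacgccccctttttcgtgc
rpl-35 downstream stretch (chrIII:7854748-7854848, plus strand): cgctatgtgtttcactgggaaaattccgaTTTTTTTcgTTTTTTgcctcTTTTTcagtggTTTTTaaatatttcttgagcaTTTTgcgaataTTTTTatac
cdc-48.1 summit (chrII:10563526-10563626, minus strand): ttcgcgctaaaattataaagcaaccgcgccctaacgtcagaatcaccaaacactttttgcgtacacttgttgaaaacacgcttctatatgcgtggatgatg
cdc-48.1 downstream stretch (chrII:10563426-10563526, minus strand): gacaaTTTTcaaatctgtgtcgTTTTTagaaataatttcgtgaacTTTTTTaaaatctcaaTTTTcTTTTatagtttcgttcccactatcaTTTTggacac
set-2 summit (chrIII:4930419-4930519, minus strand): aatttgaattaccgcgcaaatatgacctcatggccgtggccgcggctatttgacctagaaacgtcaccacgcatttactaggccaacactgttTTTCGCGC
sec-61.G summit (chrV:10897327-10897427, minus strand): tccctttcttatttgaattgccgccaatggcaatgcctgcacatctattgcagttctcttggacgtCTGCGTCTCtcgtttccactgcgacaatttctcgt
hcp-3 summit (chrIII:9617082-9617182, minus strand): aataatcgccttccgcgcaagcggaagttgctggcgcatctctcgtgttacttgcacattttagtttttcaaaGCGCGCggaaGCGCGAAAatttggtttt
R05H5.3 summit (chrII:10197241-10197341, plus strand): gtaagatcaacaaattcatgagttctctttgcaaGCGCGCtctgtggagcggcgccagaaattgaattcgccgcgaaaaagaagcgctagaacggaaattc
R03D7.2 summit (chrII:10935458-10935558, minus strand): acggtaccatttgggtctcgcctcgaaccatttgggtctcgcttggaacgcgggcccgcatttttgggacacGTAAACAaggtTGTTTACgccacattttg
The downstream stretches of rpl-35 and cdc-48.1 hold 51 and 46 thymines and 19 and 27 adenines.

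Most summits lay a short way before the gene. The median summit was 240 bp upstream of the 5' end in the IDR (irreproducible discovery rate) list, with quartiles at 402 and 134 bp. The 1648 highest peaks of replicate 1 alone gave a median of 240 bp over 603 one-direction summits and those of replicate 2 alone 245 bp over 616 (mean 242 ± 3.54 bp, SD, n = 2). The stretch over 100 and up to 300 bp upstream held 268 of the 600 summits (44.7%, interval 40.7 to 48.7%), and the interval from the 5' end to 300 bp upstream held 344 (57.3%). Only 29 summits (4.83%) were downstream of the 5' end. Since 515 of the 600 peaks had a fixed width of 420 bp with the summit at the centre, the position of those summits is that of the interval's midpoint.

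**Figure D1:**
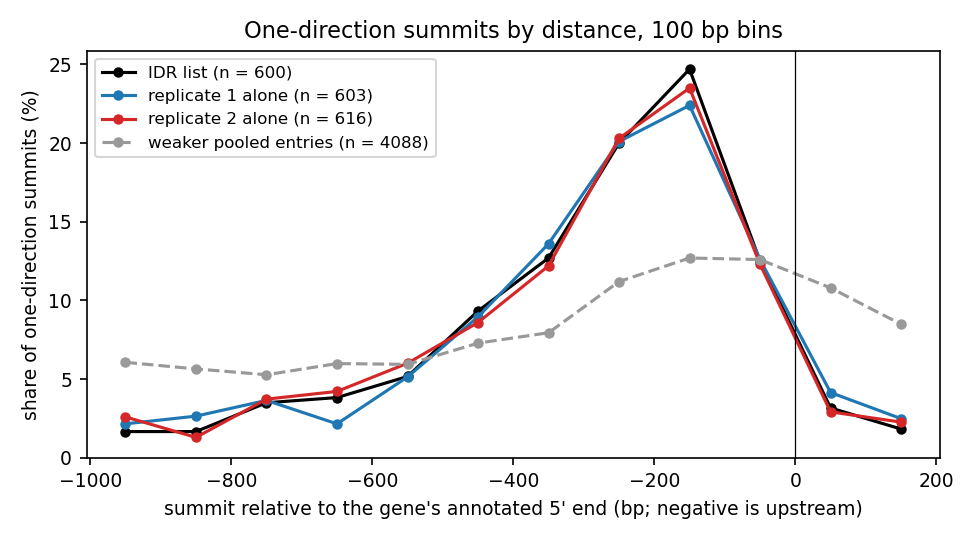
Share of one-direction summits in 100 bp bins of distance from the 5' end of the nearest gene in whose window they lie (negative is upstream), for the IDR list, for the 1648 highest peaks of each replicate alone and for weaker entries of the pooled list over 200 bp from every IDR summit. The 3 strong lists rise to their highest bin just before the gene, while the weaker entries are spread more evenly and reach past the 5' end.

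Weaker entries of the pooled relaxed list had nearly the same median distance, 242 bp upstream, but another spread. Of 4088 weaker one-direction entries, 36.6% lay within 300 bp upstream (interval 35.1 to 38.1%), against 57.3% of IDR summits. Entries downstream of the 5' end made up 19.2% of them (18 to 20.5%), against 4.83% (3.39 to 6.86%). The relaxed list holds background as well as peaks by its label. The IDR summits thus lay within 300 bp upstream more often than these weaker entries, and each replicate alone gave 55.2 and 56.2% within 300 bp upstream.

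Most summits lay between genes. Of the 600, 496 were intergenic (82.7%, interval 79.4 to 85.5%), 39 in an intron or the remainder of a coding gene, 26 in a 5' UTR, 13 in a 3' UTR, 9 in a coding exon and 17 in a noncoding gene. In 576 cases a single gene's window held the summit and in 24 cases the windows of 2 genes of the same strand did. The members touched 604 of the 19973 coding genes, which is 3.02% of them, and 583 genes were the nearest to a member. At the limits of the rule, tbc-9 had the farthest upstream member (993 bp, signal 61.4) and pyp-1 the farthest downstream (199 bp, signal 62.7). Just outside, a summit 1005 bp upstream of dhs-8 (signal 179) and one 225 bp downstream of chat-1 (signal 73.3) were left out. The member nearest to a tRNA gene lay 620 bp from it, at Y22D7AL.6, and the closest peak left out on that ground lay 137 bp away, at Y7A9D.1.

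The peak of highest signal in the whole nuclear list was a one-direction peak. It lay 532 bp upstream of K12H4.5, an uncharacterized protein, with a signal of 717 in the IDR list, 299 in replicate 1 and 420 in replicate 2, and it ranked first in both replicates. The signal is the authors' value from peak calling; no source used here names its scale, so it is compared below only inside a list.

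Next came 2 ribosomal protein genes. The summit 285 bp upstream of rpl-3, which encodes a protein of the large ribosomal subunit, had a signal of 478 (209 in replicate 1, rank 3, and 270 in replicate 2, rank 4). That 436 bp upstream of rpl-35, another large subunit protein, reached 430 (175, rank 4, and 258, rank 5). Both stood among the 5 highest nuclear peaks of each replicate.

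The other peaks of the top 8 belonged to genes of varied function. The summit at madf-6, a MADF domain protein, lay 2 bp past the 5' end, with signals of 126 in replicate 1 and 237 in replicate 2. A summit 821 bp from F59C6.18, annotated by RefSeq as an FMRF-like peptide, lay 99 bp from the snoRNA gene F59C6.15, with signals of 165 and 196. That of cdc-48.1, an AAA ATPase that extracts ubiquitin-tagged proteins, lay 169 bp upstream (124 and 202). The genes of the last pair act in the egg and on chromatin. At cpg-1, a chondroitin proteoglycan of the eggshell, the summit was 226 bp upstream (126 and 191), and at set-2, a histone H3 lysine methyltransferase, 265 bp upstream (118 and 186).

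Ranks 9 to 25 among the members held genes of RNA processing, translation, respiration and protein turnover. They were mog-4 (an RNA helicase of splicing), cox-5B (cytochrome oxidase), eel-1 (a HECT ubiquitin ligase), W04C9.4, C47E8.4 (a FAM50 homologue), app-1 (an aminopeptidase), rps-24, sec-61.G (a subunit of the protein translocation channel), rps-28, bag-1 (a co-chaperone), rom-4 (a rhomboid protease family member), W08E12.7, hcp-3 (the centromeric histone H3), F10E9.11, cpg-2, rnh-2 (ribonuclease H2) and eif-3.B (a translation initiation factor). The window that held the F10E9.11 summit also held sas-4, a centriole assembly gene. Among the 25 highest members, signals ran from 207 to 717, 23 were intergenic and 15 lay within 300 bp upstream. In 21 of the 25 the matching peak ranked among the 100 highest of both replicates.

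Signals of the matching peaks ran together between the replicates but not closely. Over the 598 members with a summit within 200 bp in both relaxed lists, Spearman's rho between the 2 signals was 0.647. This is a description across peaks of 1 strain that share a control, and the 2 unmatched members were a summit 786 bp upstream of Y54G11A.2 (no match in replicate 2) and one at act-2 (none in replicate 1). The summits of the replicates differed by a median of 23.0 bp (upper quartile 47 bp). Among the 1648 highest peaks, 492 members (82.0%) had a match within 200 bp in replicate 1, 547 (91.2%) in replicate 2 and 444 (74.0%, interval 70.3 to 77.3%) in both. The same share was 80.6% for divergent peaks (76.7 to 84.0%) and 65.9% for peaks outside coding windows (61.0 to 70.5%), so the members stood between them. For tRNA peaks it was 69.9% (63.5 to 75.6%), an interval that overlaps that of the members. The IDR list is itself selected for reproducibility between these replicates, so rho and these shares are no independent measure of their agreement. The classes also differ in signal, as given below.

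**Figure D2:**
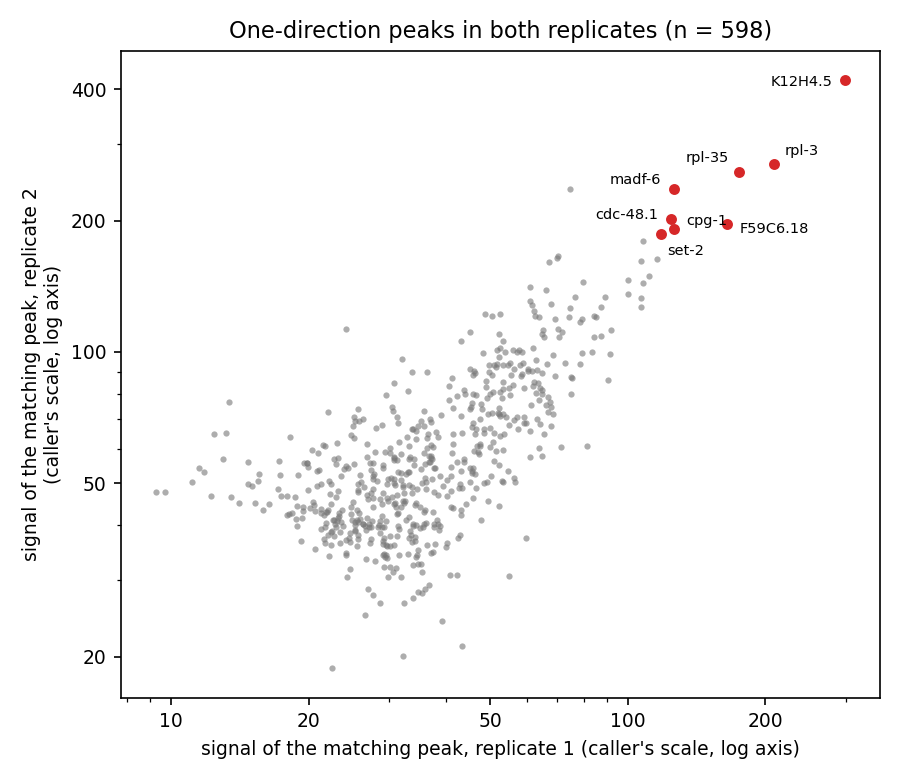
Signal of the matching peak in replicate 1 against replicate 2 for the 598 members found in both relaxed lists, each point a peak, both axes logarithmic and in the peak caller's units. The 8 members of highest IDR signal, in red, are the upper right end of the cloud, and the spread widens toward low signals.

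The lowest members show how the lists part at the weak end. The 3 lowest matched members were a second summit at Y54G11A.2 (a coiled-coil domain protein), 582 bp upstream, and those at cdt-2 (a WD repeat protein) and eif-2A (a translation initiation factor), with IDR signals of 58.9 to 59. At eif-2A the matching peak ranked 2381 in replicate 1 and 1725 in replicate 2, outside the 1648 highest of either. At apy-1, chosen after its values were seen, the signal was 9.71 in replicate 1 (rank 12740) and 47.8 in replicate 2 (rank 1023).

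One-direction peaks were lower in signal than divergent peaks and higher than peaks outside coding windows. Their median signal in the IDR list was 87.6 (quartiles 70.3 and 125, highest 717), against 99.5 for divergent peaks (75.5 and 144), 79.3 for peaks outside (68.0 and 107) and 79.8 for tRNA peaks. The ratio of the one-direction to the divergent median was 0.844 in replicate 1 alone and 0.854 in replicate 2 alone (mean 0.849 ± 0.00681, SD, n = 2). Against peaks outside, the ratio was 1.06 in replicate 1 and 1.07 in replicate 2 (1.07 ± 0.00411, SD, n = 2). Both differences from a ratio of 1 were larger than the spread between replicates, although the quartile ranges of all classes overlap.

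**Figure D3:**
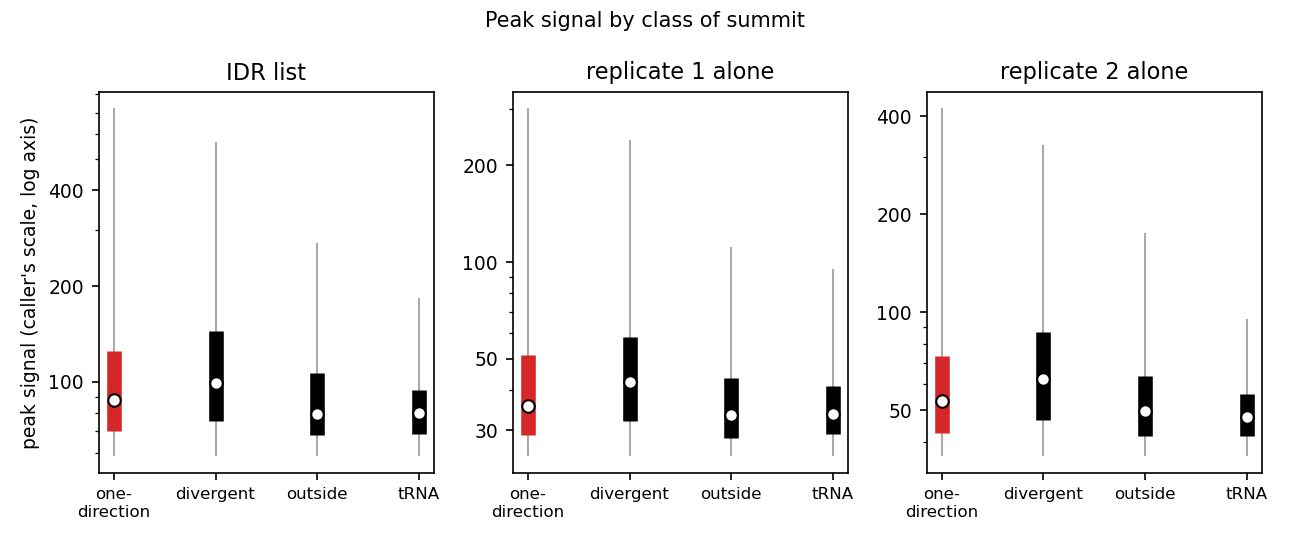
Peak signal by class of summit in the IDR list and in the 1648 highest peaks of each replicate alone, on logarithmic axes in the peak caller's units. Circles are medians, thick bars span the quartiles and thin lines the lowest to highest peak, and in each list the one-direction median lies below the divergent one and above the outside one.

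The share of one-direction peaks changed little along the list while that of divergent peaks did. Among the 412 nuclear peaks of highest signal, 168 were one-direction (40.8%, interval 36.1 to 45.6%) and among the 412 of lowest signal 149 (36.2%, 31.7 to 40.9%). Divergent peaks went from 40.3% (35.7 to 45.1%) to 19.9% (16.3 to 24.0%). Density told the classes apart more: one-strand windows covered 19.3 Mb and held 31.0 peaks per Mb, windows of both strands covered 2.08 Mb and held 215 per Mb, and the rest covered 78.3 Mb and held 4.86 per Mb. In replicate 1 alone these densities were 31.2, 195 and 5.30 per Mb, and in replicate 2 alone 31.9, 217 and 4.84 per Mb. Within the members, signal hardly ran with distance: Spearman's rho with the upstream distance was 0.026 over 600 peaks, 0.006 in replicate 1 and -0.024 in replicate 2.

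Read in the direction of the gene, the DNA around the summits changed composition in 2 steps. At the summit itself, G and C made up 46.9% of the bases in the central 51 bp, against 32.4% at 100 bp upstream and 31.8% at 100 bp downstream. The replicates alone gave 44.9 and 46.1% at the summit. Genes with no IDR summit, read at the same distances from their 5' ends, had 34.4% there. The weaker pooled entries had 38.9%.

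The second step was a thymine-rich stretch on the gene's own strand, on the side of the summit toward the gene. It was read 100 bp from the summit. For the 76 members 0 to 100 bp upstream and the 29 downstream of the 5' end, that point lies at or past that end. At 100 bp downstream of the summit, 41.3% of the bases were T and 27% A, a difference of 14.3 percentage points. At 100 bp upstream, T and A stood at 34.3 and 33.4%, a difference of 0.928 points. In replicate 1 alone the downstream difference was 13.0 points and in replicate 2 alone 13.5, and the upstream differences were 1.53 and 0.732. At this distance the 2 sides thus lay further apart than the replicates. Genes with no IDR summit gave 3.97 points at the same downstream position and weaker entries 5.08. The stretch was common to most members: over 50 bp on either side of that point, T outnumbered A in 500 of 600 (83.3%, interval 80.1 to 86.1%), against 54.7% (50.7 to 58.6%) at the upstream point. At the downstream point the share was 63.4% of coding 5' ends with no IDR summit (62.7 to 64.1%) and 62.2% of weaker entries (60.7 to 63.7%).

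**Figure D4:**
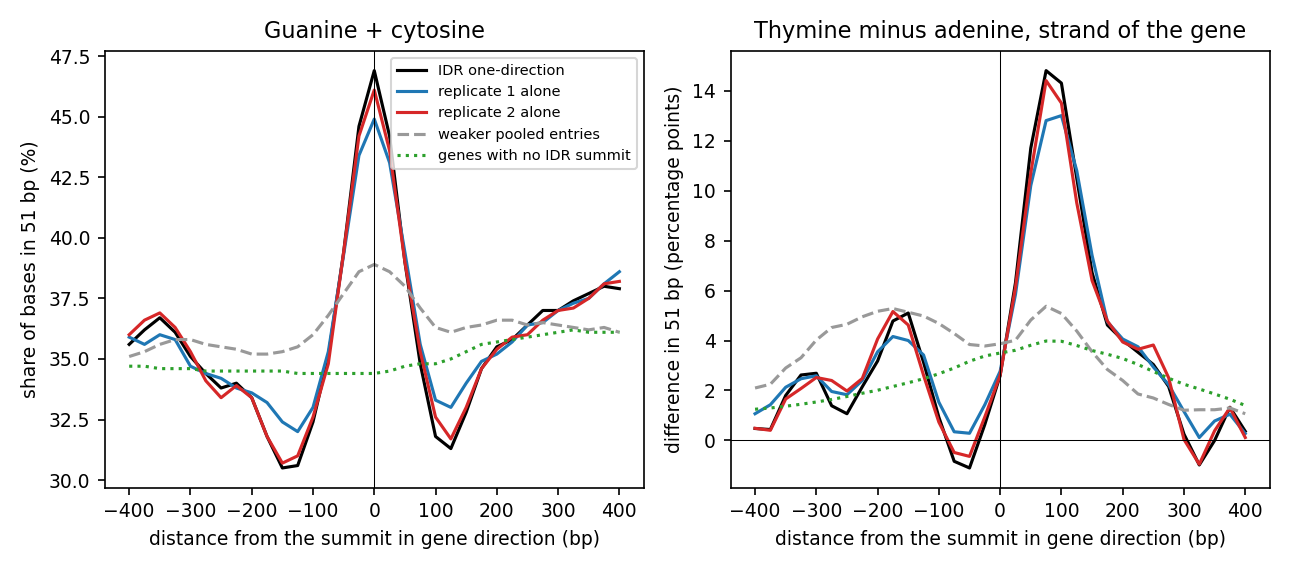
Share of guanine and cytosine (left) and thymine minus adenine on the gene's strand (right) in 51 bp windows from 400 bp before to 400 bp after the summit in the direction of the gene. Lines are the IDR members, each replicate alone, weaker pooled entries and genes with no IDR summit read at the members' distances. The 3 strong lists show a narrow peak of guanine and cytosine at the summit. They show a peak of thymine on the side of the gene and a lower one on the far side.

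The thymine excess was present in each of the distance classes read, and differed in size between them. Members 100 to 200 bp upstream of the 5' end had a difference of 19.4 points at 100 bp downstream of the summit (n = 149), those over 200 and up to 400 bp upstream 17.2 (n = 196) and those over 400 bp upstream 10.3 (n = 151). The 29 members downstream of the 5' end had 9.13, and members less than 100 bp upstream were not read separately. In the set over 400 bp upstream the point lies at least 300 bp short of the gene. The 150 members of highest signal had 17.8 points and the 150 of lowest signal 11.9.

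Divergent peaks offer the mirror arrangement, since a gene lies on either side. Read outward from the summit, T exceeded A by 12 points to the right and by 13.1 to the left of the 448 divergent summits. For one-direction summits the outward difference was 14.3 points on the side of the gene and -0.928 on the other side. Replicate 1 alone gave 11.1 and 11.2 for divergent summits and 13.0 and -1.53 for one-direction summits, and replicate 2 alone gave 11.6 and 12.6, and 13.5 and -0.732. All these values were read 100 bp from the summit. There the side away from the gene was the only one of the 4 with no excess of T outward, in the IDR list and in each replicate. The replicates share most of these loci, so these values repeat a measurement on shared DNA.

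Runs of 8 thymines (TTTTTTTT) were also counted by strand. In the 100 bp from the summit toward the gene there were 100 matches on the gene's strand and 10 on the other. In the 100 bp on the far side there were 50 and 59, and in the 100 bp before that 199 in all, the most of any bin, of which 59.8% were on the gene's strand. The runs were therefore not limited to the side of the gene, and the share on the gene's strand was 90.9% in the first 100 bp toward the gene. Overlapping matches within a longer run were counted separately. The splice acceptor word TTTTCAG had 52 and 13 matches in the first 100 bp toward the gene, and 100 and 27 at 200 to 299 bp. Cis- and trans-splice acceptors of worms share this sequence.

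The forkhead word GTAAACA was about as frequent at the summits as in coding promoters at large. GTAAACA, the core site of many forkhead factors, was searched on both strands within 50 bp of the summit and found at 9 of 600 (1.5%, interval 0.791 to 2.83%). It was in 7 and 2 of 600 windows 500 bp upstream and downstream, and in 1.56% of equally long windows placed 240 bp upstream of all 19973 coding 5' ends. Replicate 1 alone had 1.82% and replicate 2 alone 1.79%. The same letters in reverse order, ACAAATG, were at 1.83% of summits (interval 1.03 to 3.25%) and 2.41% of promoters. The summits were richer in G and C than promoters without an IDR summit, and the part of base composition in these counts was not tested. At R03D7.2, whose summit window is printed above, the word occurs on both strands, 4 bases apart. These letters in so short a window say nothing of the factor's contact with DNA. The weaker forkhead site ATAAACA was at 13 summits (2.17%), against 3.20% of promoters. Its letters in reverse order, ACAAATA, were at 2.83% of summits and 3.86% of promoters. GCAAACAC, whose inner letters resemble a forkhead site, was more frequent at summits and is given under the other observations.

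Several words rich in C and G were more frequent at the summits than in the flanks and in coding promoters. GCGCGC was within 50 bp of 82 summits (13.7%, interval 11.1 to 16.6%), against 9 and 6 of the flanking windows and 1.3% of all coding promoters. GCGCGAAA, a form of the E2F site of cell cycle promoters, was at 38 summits (6.33%) against 4 and 1 flanks and 0.406% of promoters. CTGCGTCTC, a word known from many worm promoters, was at 33 (5.50%) against 2 and 3 flanks and 0.761% of promoters. The windows of set-2, hcp-3, R05H5.3 and sec-61.G above show them.

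These words overlap in part, and the summit is also where C and G were most frequent. GACGC, the shorter alternate site of some forkhead factors, was at 141 summits (23.5%), against 51 and 54 flanks and 6.39% of promoters. Its reverse complement is contained in CTGCGTCTC, and 108 of the 141 windows hold it without that longer word. The same letters in reverse order serve as a comparison of equal composition: CGCAG was at 153 summits, CGCGCG at 81, AAAGCGCG at 8 and CTCTGCGTC at 13. CGCAG is itself, on its other strand, the start of CTGCGTCTC. CGCGCG is GCGCGC shifted by a single base, CTCTGCGTC shares CTGCGTC with CTGCGTCTC, and AAAGCGCG shares GCGCG with GCGCGAAA. The reversed letters are therefore not independent of the words. GCGCGC and GACGC stood close to their reversed letters, but with this overlap near-equal counts cannot separate a word from its composition. GCGCGAAA was found at 38 summits and CTGCGTCTC at 33, each more often than its reversed letters. The part of base composition in these counts was not tested. In divergent peaks GCGCGC, GCGCGAAA and CTGCGTCTC stood at 14.7, 5.58 and 4.91%, close to the members.

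GCGCGAAA was rare at the weakest members. In order of signal, in sets of 150, it was at 12, 15, 10 and 1 summits (the last 0.667%, interval 0.118 to 3.68%). GCGCGC went from 26 to 15 of 150 and CTGCGTCTC from 8 to 7. By gene list, GCGCGAAA was at 3 of the 12 members of cell cycle and spindle genes, 2 of the 8 of chromatin regulators, 0 of the 20 of cytosolic ribosomal proteins and 0 of the 15 of germline RNA regulators, where 6.33% of all members held it.

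Lists of germline, replication, ribosome and nuclear transport genes had the highest shares. Against 3.02% of all coding genes with a one-direction summit (3.03% from replicate 1 alone and 3.12% from replicate 2 alone), the share was 30.6% of germline RNA regulators, 25% of DNA replication genes, 24.7% of cytosolic ribosomal protein genes, 22.5% of nuclear pore and transport genes, 19.7% of cell cycle and spindle genes and 8 of 40 chromatin regulators. These 6 lists had the highest shares of the 37 lists in the IDR list. By the mean of the replicates alone (n = 2), 2 other lists stood above chromatin regulators (16.2%). They were RNA decay genes (19.1%) and the 8 retinoblastoma and DREAM genes (18.8%). The lists cover 146 of the 604 genes (24.2%). Of the 604 genes, 437 carry a symbol (72.4%), against 54.6% of all coding genes, so genes with a given symbol were more frequent among them.

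**Figure D5:**
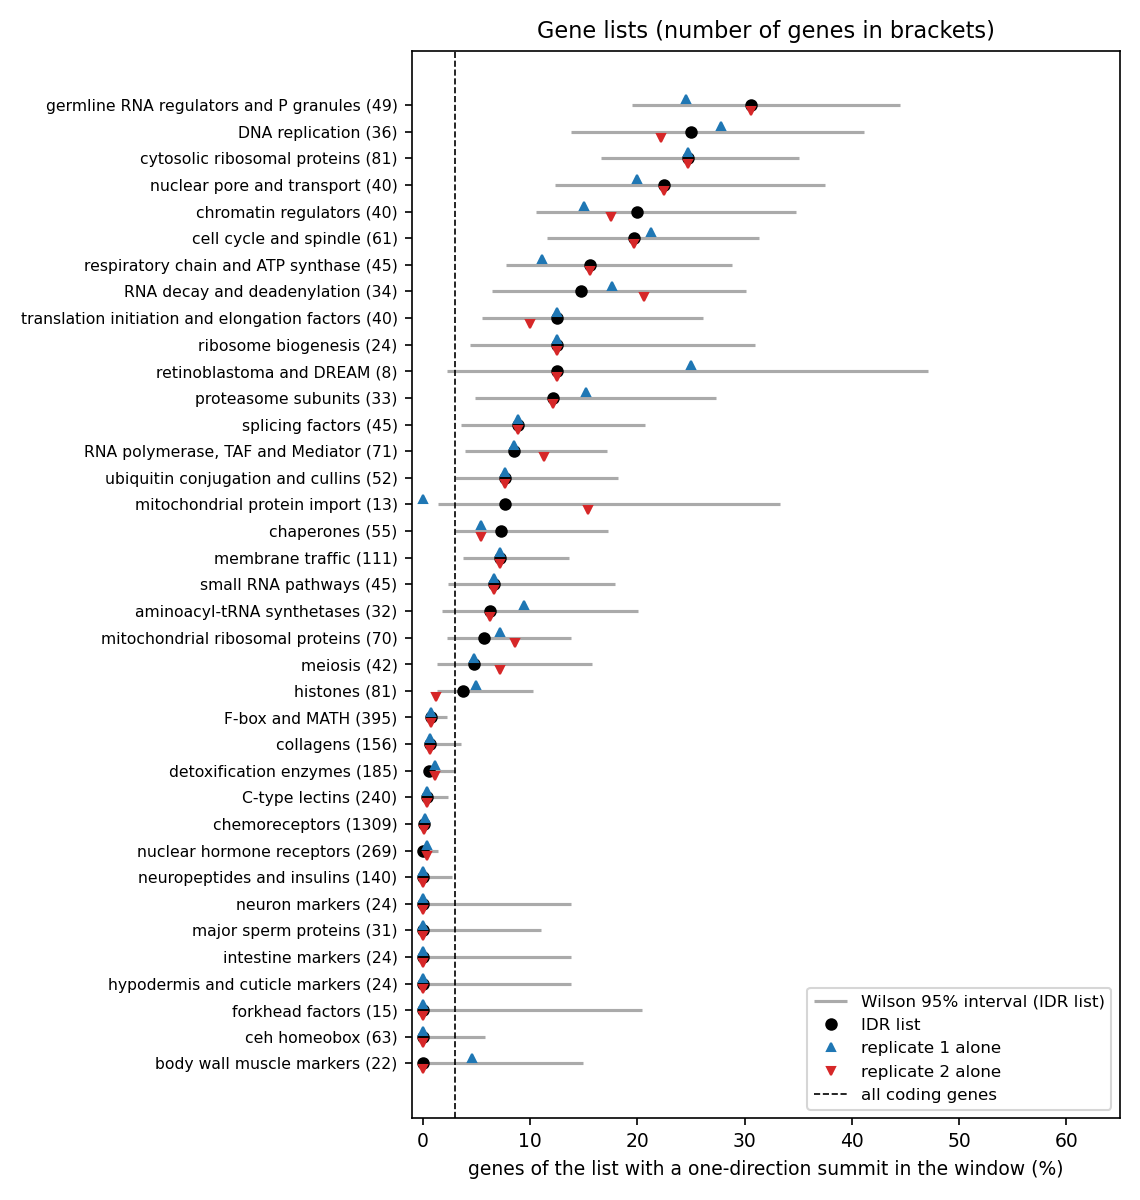
Share of the genes of each list with a one-direction summit in the promoter window, for the IDR list (black, with Wilson 95% intervals) and for the 1648 highest peaks of each replicate alone (triangles); the dashed line is the share of all coding genes. Several lists of growth, division and germline lie to the right of the line, and lists of receptors, cuticle and tissue markers lie at or near 0.

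In the IDR list germline RNA regulators and P granule genes had the highest share, 15 of 49 (30.6%, interval 19.5 to 44.5%), with 12 in replicate 1 alone and 15 in replicate 2 alone (27.6 ± 4.33%, SD, n = 2). In replicate 1 alone DNA replication, DREAM and ribosomal protein genes stood above them. Their signals were modest, with a median of 78.6 against 89 over all 604 genes. The summit 89 bp upstream of rme-2, the yolk receptor of oocytes, had a signal of 59.1 in replicate 1 and 82.6 in replicate 2. That 227 bp upstream of puf-11, a Pumilio-family RNA-binding protein, had 55.3 and 79.6.

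Regulators of germ cell fate were among them, and the list also holds germline genes of other roles, such as the receptors rme-2 and glp-1. The oocyte maturation regulator oma-1 had 38.9 and 71.6 at 267 bp upstream, and mex-6, the close relative of mex-5, had an IDR signal of 109 at 422 bp upstream. At gld-1, a translational repressor that promotes entry into meiosis, the values were 31.4 and 42.7, and at glp-1, the Notch receptor of germline stem cells, 21.3 and 49.7 at 647 bp upstream. For oma-1, gld-1 and glp-1 replicate 2 was higher, as over the members at large, where the median ratio of replicate 2 to replicate 1 was 1.54. The remaining members of the list were daz-1, gld-2, lip-1, mip-1, oma-2, pgl-3, pie-1, puf-3 and puf-5.

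Meiosis genes had 2 of 42 (4.76%, interval 1.32 to 15.8%, which includes the 3.02% of all coding genes), dsb-2 and syp-5, the latter a component of the synaptonemal complex. The same list had 11 genes with a divergent peak (26.2%, where 4.55% of all coding genes had one). For germline RNA regulators the divergent count was 10 of 49 (20.4%). How a list divides between the 2 classes depends on how its genes are placed: on average 73.7% of the 1000 bp before germline RNA regulators lay in windows of one strand only, 57.3% before meiosis genes and 81.9% before all coding genes. Small RNA pathway genes had 3 of 45 (6.67%), nrde-4, tofu-6 and znfx-1.

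DNA replication and the cell cycle followed. Of 36 replication genes 9 had a member (25%, with 10 and 8 in the replicates alone), among them pcn-1, the sliding clamp (48.7 in replicate 1 and 122 in replicate 2, 249 bp upstream), the helicase subunits mcm-2, mcm-4 and mcm-5, and the replication initiation factor mcm-10. At mcm-2 the values were 66.4 and 93.8 at 255 bp upstream. Of 61 cell cycle and spindle genes 12 had one (19.7%), with a median signal of 141.

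Those 12 spanned centrosome, kinetochore and cytokinesis. The survivin homologue bir-1 had 75.1 in replicate 1 and 79.9 in replicate 2 at 126 bp upstream. The polo kinase plk-1 had 62.0 and 83.7 at 167 bp upstream. The kinesin zen-4, needed for cytokinesis, had 43.2 and 106 at 216 bp upstream, with a snoRNA gene 123 bp from the summit. The others were cdk-1, cyb-2.1, hcp-1, hcp-3, knl-2, knl-3, sas-4, tbg-1 and wee-1.3.

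Ribosomal protein genes had a one-direction summit in 20 of 81 cases (24.7% in the IDR list and in each replicate alone) and a divergent one in 34 of 81 (42.0%). Apart from rpl-3, rpl-35, rps-24 and rps-28 their signals were ordinary, with a median of 87.2. Proteins of mitochondrial ribosomes had 4 of 70 (5.71%), which became 2.86% with windows of 500 bp and 8.57% from replicate 2 alone. Among other genes of expression, nuclear pore and transport genes had 9 of 40 (22.5%), led by npp-8 (62.4 in replicate 1 and 124 in replicate 2), RNA decay genes 5 of 34 (14.7%), led by the exosome subunit exos-8 (85.3 and 120), and chromatin regulators 8 of 40, led by set-2 and the acetyltransferase mys-1 (61.0 and 57.4).

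The thymine stretch differed in size among these groups. T exceeded A at 100 bp downstream by 28.5 points over the 9 replication members, 24.1 over the 20 ribosomal members, 24.0 over the 9 nuclear pore members, 18.3 over the 12 cell cycle members, 17.9 over the 15 germline members and 5.39 over the 8 chromatin members. With so few windows in each the order is a description only.

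Lists of receptor genes had few members against the 3.02% of all coding genes, and the shorter lists of tissue markers had none. There were 0 of 269 listed nuclear hormone receptors and 0 of 140 listed neuropeptides and insulins. The ceh homeobox genes had 0 of 63, major sperm proteins 0 of 31 and forkhead genes 0 of 15. These lists leave out some genes with a member that carry a sequence name only. RefSeq names F59C6.18, F14H8.8 and F43G6.16 as FMRF-like or neuropeptide-like. It gives F38E11.9 a nuclear receptor ligand-binding domain and names Y53F4B.19 a major sperm protein. The counts of 0 therefore hold for the listed genes alone. The 1309 chemoreceptor genes had 1, sre-23, whose summit lay 22 bp from a snoRNA gene, and the 156 listed collagens had 1, col-63. T22D1.17, with a cuticle collagen domain by RefSeq, also had a member and was not counted there. The body wall muscle, intestine, neuron and hypodermis markers had 0 of 22, 24, 24 and 24, and a count of 0 of 24 allows a share of up to 13.8% (Wilson upper limit). The upper limits for the marker, ceh, sperm protein, forkhead and collagen lists (3.54% for collagens) lie above 3.02%. These lists cannot be told from the background. Those for the listed nuclear hormone receptors (1.41%), neuropeptides (2.67%) and chemoreceptors (0.431%) lie below it, with genes outside the lists not counted. In the replicates alone muscle markers had 1 and 0, nuclear hormone receptors 1 and 1, and chemoreceptors 2 and 1. In whole animals, binding in few cells and weak binding in many cannot be told apart. Of the genes that make up the transgene or the strain, tbb-2, unc-130 and unc-119 had no IDR summit in their windows, mex-5 had a divergent one and no one-direction one, and the Piwi gene prg-1 had none.

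A part of the members lay closer to a noncoding gene than to the coding gene that placed them in the set. Apart from tRNA, 21U-RNA and pseudogenes, a noncoding gene started nearer in 66 of 600 cases (11%, interval 8.74 to 13.8%) and within 200 bp in 57. Among the latter were 18 snoRNA, 8 snRNA and 1 miRNA gene. No such share is given here for other coding promoters or peak classes, so these counts cannot be called particular to the members. Summits lay 22 bp from the spliced-leader gene sls-2.1, with signals of 74.2 in replicate 1 and 120 in replicate 2, and 47 bp from sls-2.4, with 63.9 and 77.5. The thymine difference over the 66 was 10.2 points, against 14.8 over the other 534. For these 66 peaks the named coding gene is not the nearest annotated 5' end.

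The members were unevenly spread over the chromosomes. The share of coding genes with a one-direction summit was 4.38% on chromosome I, 4.06% on II, 4.89% on III, 3.29% on IV, 1.88% on V and 0.256% on X (7 of 2731, interval 0.124 to 0.528%). Replicate 1 alone gave 0.403% on X and replicate 2 alone 0.293%. The member of highest signal on X was T13C5.6, with 61.1 in replicate 1 and 66.0 in replicate 2. The others included the chaperone gene hsp-3 and pdi-6, a protein disulfide isomerase.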

How the data were processed

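The deposited ce11 narrowPeak lists (the optimal IDR list, 1 relaxed list per replicate and 1 of the pooled reads) were used as given. Column 7 is the deposited signal value of the authors' caller, column 10 the deposited summit offset, and column 9 the deposited −log10 q-value, which was not used to rank peaks. All lists share 1 control, per the deposited text listings. Aligner, caller and IDR threshold: not given in the sources used here. Read counts were not used, so depth is unknown and Wilson 95% intervals cover counting error only. Genes came from Ensembl release 115 and sequence from RefSeq, both of WBcel235, read with Python 3.11.15, numpy 2.4.6 and pandas 2.3.3; figures used matplotlib 3.10.9.

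A summit was given to the nearest 5' end among the windows holding it. Overlapping annotations were ranked coding exon, 5' UTR, 3' UTR, rest of a coding gene, noncoding gene. Replicates alone were their 1648 highest nuclear peaks by signal; matching peaks had the nearest summit within 200 bp. Weaker entries were pooled-list summits over 200 bp from every IDR summit. The classification and sequence steps were tested on simulated data. The rule, the 37 lists and the words were chosen with earlier results of these data known. Named genes were the 25 highest and 3 lowest matched members, up to 4 per list by signal, 5 fixed names, and others only to complete a list or a count. Of the list symbols, 3 of small RNA pathways and 1 of meiosis were not in the annotation. Columns not tied to a sample numbered 0.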

Additional observations from a re-analysis of the deposited data

How the results depend on the processing

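No paired analysis was possible because the samples form 1 group. Against the SD of the replicates alone, these settings moved a value. The one-direction share of 36.4% became 37.1% with windows of 500 bp upstream, 38.5% with the ends of every coding transcript, 37.0% among peaks above the median signal and 34.5% when the whole peak had to touch windows of 1 strand. The median of 240 bp upstream became 200 bp with windows of 500 bp and 298 bp with windows of 2000 bp, as their construction sets, 234 bp with every transcript end and 247 bp above the median signal. The 604 genes became 316 above the median signal, which leaves fewer peaks. The median signal relative to divergent peaks, 0.880, became 0.873 and 0.872 with the matching signals of replicates 1 and 2 and 0.872 with windows of 500 bp; relative to outside peaks, 1.10, it became 1.03 with those of replicate 1. Within 25 bp and 100 bp of the summit, GCGCGC was at 8.17 and 18.2% of members, GCGCGAAA at 3.17 and 8.33%, CTGCGTCTC at 2.83 and 7.33% and GTAAACA at 0.833 and 2.83%, since the window changes length. In all, 30 of 48 main values differed by more than the SD of the replicates. Of the shares of single gene lists, 89 of 296 values did. That SD rests on 2 replicates and was 0 for some lists, such as cytosolic ribosomal proteins, where any change exceeds it. Above the median signal, germline RNA regulators went from 30.6 to 12.2%, cytosolic ribosomal proteins from 24.7 to 12.3% and respiratory chain genes from 15.6 to 4.44%, with fewer peaks to assign. With windows of 500 bp, RNA decay genes went from 14.7 to 8.82% and meiosis genes from 4.76 to 9.52%. Leaving out a replicate gave shares of 36.6 to 37.4%, medians of 240 to 245 bp, 606 to 623 genes, GCGCGC at 11.3 to 13.6%, GCGCGAAA at 5.31 to 5.84%, CTGCGTCTC at 4.81 to 5.03% and GTAAACA at 1.79 to 1.82%. The unknown depth and the single control limit all of these values.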

Other observations

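Words of 8 letters were ranked by their excess at members on chromosomes II and III and then read at the 208 members on IV, V and X. The word ranked first, GCGAGACC (GGTCTCGC on the other strand), was within 50 bp of 24 of 265 summits on II and III, against 1 and 3 flanks, and of 17 of 208 summits on the others (8.17%), against 1 and 2 flanks and 0.651% of all coding promoters. AAAGGCGC was at 18 of 265 and 21 of 208 (10.1%, 0.846% of promoters), and CTAGGCCA at 16 and 16 (7.69%, 0.481%). GCAAACAC, whose inner letters resemble a forkhead site, was at 17 and 10 (4.81%, 0.746%). Each of these was more frequent at summits than in the flanks on IV, V and X. The other ranked words ran there from 9.62% (AAGGCGCA, 0.756% of promoters) to 1.92% (GGCGAGAC, 0.421%), the latter from 5.66% on II and III. AATTCAAA was at 5.29%, near its 4.18% of promoters. On II and III an excess follows from the ranking. The ranking set and the reading set come from the same peak list.

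In the list, 17 genes had 2 members each. In 14 of the 17 the summits were 195 to 209 bp apart, and in all 1642 pairs of neighbouring nuclear IDR summits none was closer than 199 bp. At mog-4 the summits lay 217 and 424 bp upstream, with IDR signals of 287 and 97.9, and at snr-4, which encodes a core splicing protein, 386 and 587 bp upstream, with 177 and 111. Whether such pairs are separate sites or a spacing set by the caller was not tested.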
